A study of Mus musculus with 62 samples.

Results

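*Slc25a30*, *Sbk2*, *Neto2* and *Dusp26* are 4 little-studied genes that were chosen because their mRNA levels in mouse gastrocnemius (GC) differed between hypoxia and normoxia. They were picked by symbol, as 4 of the 30250 entries of the largest of 4 expression tables, and each was found in all 4 tables. The values that chose them are those of the hypoxic and normoxic libraries, so these are given as a description with no test. Tests were run only in libraries that did not enter that choice, which are the chow-fed GC and soleus (SOL), the high-fructose diet (HFrD) groups set against each other, AAV-injected GC and C2C12 cells.

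The study asked what ChREBP (gene *Mlxipl*), a transcription factor that responds to carbohydrate, does in skeletal muscle, and the files used here hold 62 RNA-seq libraries. F/F mice carry the floxed ChREBP allele (genotype label ChREBP-flox). ChMKO mice (ChREBP-flox;Mck-cre) carry the same allele with Cre driven by the muscle creatine kinase promoter, which is active in mature muscle fibers and in heart and not in the other cells of a muscle. All F/F and ChMKO mice therefore share the floxed allele, and in ChMKO the loss of exon 8 leaves the other exons to be transcribed and counted. In chow-fed mice both GC and SOL were sampled, from 5 F/F and 5 ChMKO animals. GC alone was taken from F/F and ChMKO mice in 3 states (n = 4 per group): normoxia on chow (Norm), a chamber simulating about 5500 m of altitude for 2 weeks (Hypo), or a diet with 68% of calories as fructose for 3 months (HFrD). The hypoxic mice were moved back to standard housing before the muscles were collected. GC of wild-type C57BL/6J mice was injected with AAV9 that expressed ChREBP (AAV-MLXIPL) or GFP (AAV-CON) from a CMV promoter and was collected 14 days after injection (n = 5 per group). C2C12 cells, a mouse myoblast line that fuses into myotubes in culture, came from 1 stable line with control and 1 with ChREBP retrovirus and were collected on day 7 of differentiation (n = 4 per group), so those 4 libraries vary within a line. The mice were males of 8 to 10 weeks unless stated otherwise, and the age of the Norm mice relative to those kept for 3 months on HFrD is not given in the sources used here.

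The 4 genes act in different places in the cell. *Slc25a30* encodes a mitochondrial inner-membrane carrier related to the uncoupling proteins, known mainly from kidney. *Sbk2* encodes a kinase of the SH3 domain binding kinase family, reported from heart atria. *Neto2* encodes a transmembrane protein that associates with kainate-type glutamate receptors in neurons and alters their gating. *Dusp26* encodes an atypical dual-specificity phosphatase, an enzyme class that removes phosphate from tyrosine and serine or threonine, for which MAP kinases such as p38 have been described as substrates. In low oxygen, hypoxia-inducible factors are stabilized and bind DNA at a core of ACGTG or GCGTG, and ChREBP binds carbohydrate response elements built from a pair of E-box-like pieces (CACGTG is the full E-box). GC of the mouse is made mostly of fast fibers, and SOL is rich in slow oxidative fibers.

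In the chow table, whose positions follow GRCm38, *Slc25a30* (gene35259) spans chr14:75757535-75787042 on the minus strand, *Sbk2* (gene16337) chr7:4956910-4964470 on the minus strand, *Neto2* (gene21359) chr8:85636588-85700919 on the minus strand and *Dusp26* (gene20535) chr8:31089662-31097047 on the plus strand. The transcript lengths listed in the table of the Norm, Hypo and HFrD libraries are 4571, 3147, 6129 and 2305 bases in the same order.

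The 250 bases before the RefSeq start are shown for *Slc25a30*, *Sbk2* and *Neto2*, the 3 members that matched the RefSeq promoter table (GRCm38.p6), because these members share a direction in hypoxia. RefSeq starts differ from the gene ends in the chow table, so the *Sbk2* and *Slc25a30* windows reach into the span given above. Each is written 5′ to 3′ on the gene's strand, and capitals mark the cores named above. A core GCGTG on the other strand reads as CACGC.
Slc25a30, chr14:75787038-75787287, minus strand: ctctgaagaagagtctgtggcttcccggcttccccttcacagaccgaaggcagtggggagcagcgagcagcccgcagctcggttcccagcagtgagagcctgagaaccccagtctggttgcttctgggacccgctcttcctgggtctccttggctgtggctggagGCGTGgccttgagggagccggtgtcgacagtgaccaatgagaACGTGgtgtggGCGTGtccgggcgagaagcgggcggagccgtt
Sbk2, chr7:4964407-4964656, minus strand: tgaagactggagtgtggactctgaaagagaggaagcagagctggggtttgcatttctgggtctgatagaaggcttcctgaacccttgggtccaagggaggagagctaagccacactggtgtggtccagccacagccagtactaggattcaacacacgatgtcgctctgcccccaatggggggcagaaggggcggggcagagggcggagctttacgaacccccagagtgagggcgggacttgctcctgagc
Neto2, chr8:85700925-85701174, minus strand: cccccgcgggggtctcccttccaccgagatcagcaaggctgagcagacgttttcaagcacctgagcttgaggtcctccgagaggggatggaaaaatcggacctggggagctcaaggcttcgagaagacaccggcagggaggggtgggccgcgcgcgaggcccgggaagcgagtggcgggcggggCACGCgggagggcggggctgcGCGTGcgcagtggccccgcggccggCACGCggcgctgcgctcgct

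The *Slc25a30* window held 1 ACGTG and 2 GCGTG, the *Neto2* window 3 GCGTG and the *Sbk2* window neither. The full E-box CACGTG, which contains ACGTG, was in none of the 3 windows. Of 32851 promoter windows of the same length, searched on both strands, 16.6% held ACGTG, 28.2% held GCGTG, 38.6% held either and 6.02% held CACGTG. A second RefSeq start of *Neto2* (chr8:85691010-85691259) held none of these letters. These are matches of letters and no binding was measured.

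Before the values of the Norm, Hypo and HFrD groups, a split among their 24 libraries has to be stated. With the members left out, the first principal component of 9311 genes carried 63% of the variance and parted the libraries into 2 sets of 12 with a gap between them. Libraries are named by the letter and number in their labels. The first set held all 8 HFrD libraries, Hypo_F/F c360 and c361 and Norm_F/F c397 and c401. The second set held Hypo_F/F c341 and c348, Norm_F/F c368 and c369 and all 8 ChMKO libraries of Norm and Hypo. The labels give no batch, date or other property that parts them this way. The summed level of 5 muscle fiber genes (*Acta1*, *Ckm*, *Ttn*, *Mb*, *Des*) was 17000 to 21900 FPKM in the first set and 25600 to 35500 in the second, that of 5 endothelial markers 43.9 to 58.3 against 66.8 to 109, and that of 5 red blood cell genes 62.3 to 331 against 205 to 840. HFrD against Norm in ChMKO runs wholly between the sets, so diet and set cannot be told apart there. Each member's F/F result below is given within a set where a set holds both groups.

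Depth was 14473169 to 23460511 recovered reads in the 24 libraries of this table, an estimated 16800000 to 19700000 in the chow table and 15300000 to 20200000 in the AAV table, and is unknown for C2C12. In the 24 libraries the members' values rest on 190 to 1491 reads for *Slc25a30*, 410 to 3424 for *Sbk2*, 33 to 1078 for *Neto2* and 192 to 1447 for *Dusp26*. As a check of the labels, *Mlxipl* was lower in ChMKO than in F/F in every state: 3.30 against 8.63 FPKM in Norm, 2.82 against 8.21 in Hypo, 4.40 against 9.26 on HFrD, 15.7 against 24.9 in chow GC and 38.4 against 53.4 in chow SOL. The last 2 differences missed the threshold (limma, adjusted p = 0.413 and 0.384). *Mlxipl* was 83.5 against 11.3 FPKM with AAV-MLXIPL and 13.4 against 0.005 in C2C12.

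In hypoxia, *Slc25a30*, *Sbk2* and *Neto2* were lower and *Dusp26* was higher in GC of both genotypes. On the log2(FPKM + 1) scale used for every difference here, the difference Hypo minus Norm lay between -1.43 and -1.04 for the first 3 genes and was 1.03 and 1.06 for *Dusp26*. In ChMKO the 4 Hypo and 4 Norm libraries did not overlap for any member, and in F/F they did not overlap for *Sbk2*. Groups that do not overlap were seen for 3.04% of all genes in F/F and for 9.81% in ChMKO, and nothing is read from the members' counts here because the members were chosen on this contrast. For the same reason no p is given. A bulk library cannot tell fewer cells of a type from less RNA per cell.

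**Figure D1:**
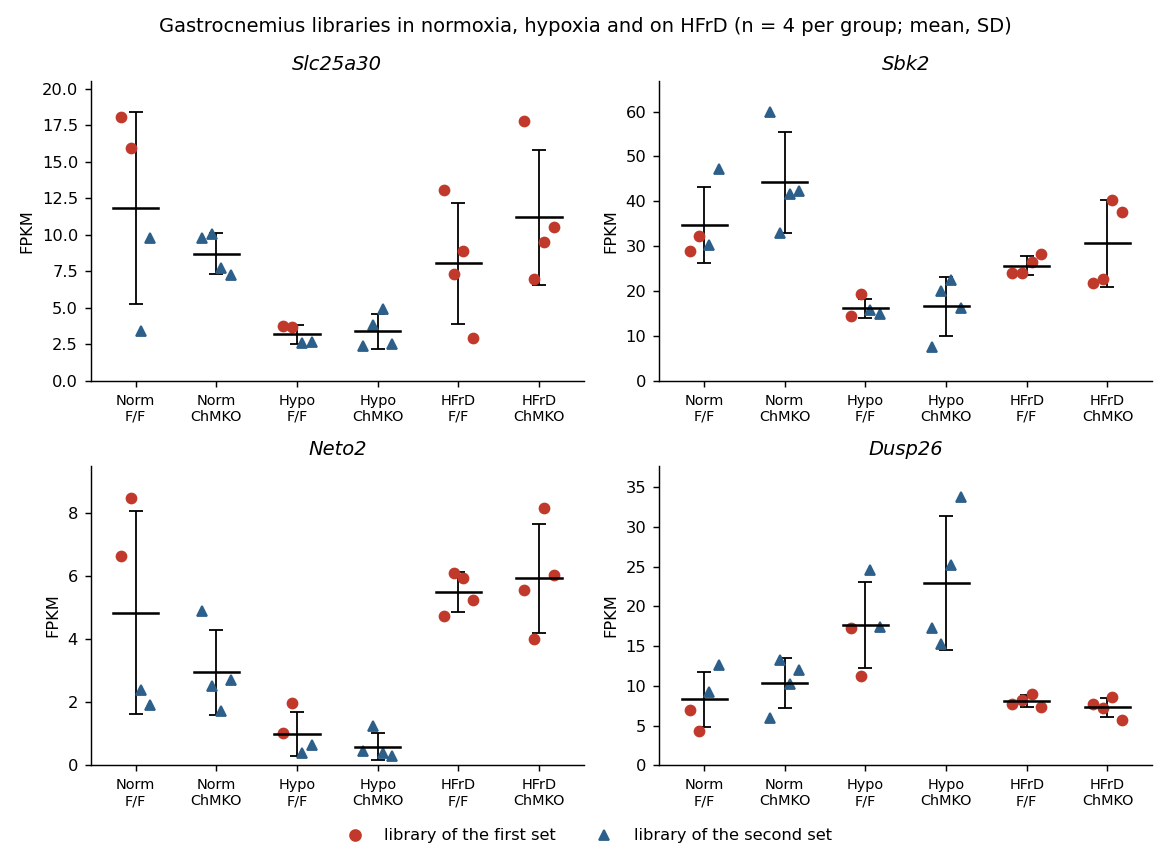
FPKM (vertical axis) of the 4 genes in the 24 GC libraries by state and genotype, with red circles for libraries of the first set and blue triangles for the second, lines at the mean and bars of 1 SD (n = 4 per group). The means of both Hypo groups are the lowest for *Slc25a30*, *Sbk2* and *Neto2* and the highest for *Dusp26*, and the Norm_F/F libraries of the 2 sets lie apart for *Slc25a30* and *Neto2*.

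*Slc25a30* measured 18.05 and 15.9 FPKM in the first-set and 3.45 and 9.82 in the second-set Norm_F/F libraries. In Hypo_F/F it measured 3.77 and 3.72 in the first set and 2.57 and 2.68 in the second. All Hypo_F/F libraries were thus below all Norm_F/F libraries except Norm_F/F c368, which fell among them. The mean was 3.18 ± 0.65 in Hypo_F/F and 11.8 ± 6.58 in Norm_F/F (SD, n = 4), a log2 difference of -1.43 (SE 0.413). Within sets, where 2 libraries face 2, the groups did not overlap and the difference was -1.92 in the first set and -0.94 in the second. In ChMKO the gene measured 9.79, 10.1, 7.72 and 7.29 FPKM in Norm and 2.38, 3.84, 4.91 and 2.50 in Hypo. The highest hypoxic value lay below the lowest normoxic value, and the log2 difference was -1.17 (SE 0.183).

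*Sbk2* was the most abundant member per length in Norm and HFrD, and *Dusp26* in Hypo. In F/F *Sbk2* measured 29.0, 32.4, 30.3 and 47.3 FPKM in Norm (libraries c397, c401, c368 and c369) and 14.6, 19.2, 15.8 and 15.0 in Hypo (c360, c361, c341 and c348). No hypoxic library reached a normoxic one, and the mean of 16.1 ± 2.14 against 34.8 ± 8.48 (SD, n = 4) gave a log2 difference of -1.04 (SE 0.169), with -0.84 in the first set and -1.25 in the second. In ChMKO it measured 59.8, 32.9, 41.7 and 42.4 in Norm and 7.48, 19.9, 22.6 and 16.3 in Hypo. Library c332 was lowest of all 24, and the log2 difference was -1.43 (SE 0.293).

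*Neto2* was the least abundant member per length. In F/F it measured 6.63 and 8.47 FPKM in the first-set and 2.38 and 1.90 in the second-set Norm libraries, and 1.01, 1.98, 0.38 and 0.65 in Hypo (c360, c361, c341 and c348). The highest hypoxic value, in library c361, lay just above the lowest normoxic one, in library c369 of the other set. Within each set the groups did not overlap, with log2 differences of -1.80 and -1.05 around the overall -1.42 (SE 0.409). In ChMKO it measured 4.88, 2.50, 1.74 and 2.69 in Norm and 0.46, 1.24, 0.40 and 0.29 in Hypo, all hypoxic values lower, with a log2 difference of -1.28 (SE 0.233). A pseudocount of 1 narrows log2 differences at such low levels. With limma-voom on the recovered reads the difference was -2.21 in F/F and -2.48 in ChMKO. That fit uses counts and weights, so it differs in more than the pseudocount, and the cause of the shift was not tested.

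*Dusp26* moved the other way. In F/F it measured 7.01 and 4.39 FPKM in the first-set and 9.26 and 12.6 in the second-set Norm libraries, and 17.2, 11.3, 24.5 and 17.5 in Hypo (c360, c361, c341 and c348). Library c361 of Hypo lay below library c369 of Norm, and no other pair crossed. The log2 difference was 1.03 (SE 0.305), and within the sets, where the groups did not overlap, it was 1.19 and 0.88. In ChMKO it measured 6.01, 13.2, 10.2 and 12.0 in Norm and 17.3, 15.3, 25.3 and 33.8 in Hypo, all hypoxic values higher, with a log2 difference of 1.06 (SE 0.267). *Dusp26* mean levels were 17.6 ± 5.41 against 8.32 ± 3.49 FPKM in F/F and 22.9 ± 8.44 against 10.4 ± 3.16 in ChMKO (SD, n = 4).

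With 2 libraries against 2, groups that do not overlap are common: they were seen for 50.6% of all genes in the first set and 41.8% in the second. With set as a term in the F/F fit the log2 differences stayed at -1.43 for *Slc25a30*, -1.04 for *Sbk2*, -1.42 for *Neto2* and 1.03 for *Dusp26*, since each set holds 2 libraries of each group, and the SEs were 0.285, 0.157, 0.188 and 0.191. Marker sums are set beside the members. No slow fiber or red blood cell gene tested separated the Hypo from the Norm libraries without overlap in either genotype. The summed level of 5 slow fiber genes (*Myh7*, *Myh7b*, *Tnnc1*, *Tnni1*, *Tnnt1*) was 92.3 to 517 FPKM in Hypo_F/F and 70.1 to 565 in Hypo_ChMKO, against 15.8 to 123 in Norm_F/F and 6.31 to 125 in Norm_ChMKO. The summed red blood cell genes were 156 to 644 and 316 to 840 in the Hypo groups against 103 to 387 and 217 to 407 in the Norm groups. Within the first set the F/F sums did not overlap (slow fiber 172 to 191 against 29.9 to 39.7, red blood cell 156 to 331 against 103 to 113), and within the second set they did. Fibroblast sums overlapped at lower levels in hypoxia (153 to 233 against 171 to 379 in F/F, 160 to 239 against 219 to 441 in ChMKO), with list medians of -0.31 and -0.41. Schwann cell and adipocyte lists had medians of -0.64 and -0.58 in F/F and 0.30 and 0.37 in ChMKO. Their part in the members' differences was not tested.

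The families of the members were set beside them in hypoxia, again as a description. Of 6 measured carriers of the uncoupling and dicarboxylate branch, *Ucp3*, the uncoupling protein of skeletal muscle, was lower in Hypo_F/F (44.5 ± 2.53 FPKM) than in Norm_F/F (79.8 ± 13.4) with no overlap over all libraries or within either set, and 55.4 ± 24.2 against 89.2 ± 39.1 in ChMKO with overlap (SD, n = 4). *Slc25a11*, the oxoglutarate carrier, was 98.5 ± 27.0 against 91.9 ± 30.1 in F/F and 125 ± 13.0 against 106 ± 10.1 in ChMKO, where the groups did not overlap. *Sbk3*, next of kin to *Sbk2*, had a mean of 1.37 FPKM in Hypo_F/F against 0.39 in Norm_F/F, and 0.82 against 0.41 in ChMKO, with overlap in both. Within the first set alone the F/F libraries of *Slc25a11* and *Sbk3*, 2 against 2, did not overlap. Of the atypical phosphatases other than *Dusp26*, 0 of 13 in F/F and 0 of 12 in ChMKO were higher in hypoxia without overlap, while 1 (*Dusp13*) and 4 (*Dusp3*, *Dusp13*, *Dusp14*, *Dusp19*) were lower. Over all genes, 41 of 10740 in F/F and 346 of 10676 in ChMKO were higher without overlap, and 285 and 701 were lower. *Dusp26* itself overlapped in F/F. The median log2 difference of that list was -0.11 in F/F and -0.20 in ChMKO, beside -0.06 and -0.03 over all genes. The p38 kinases *Mapk12* (31.0 ± 1.06 against 32.1 ± 3.26 FPKM) and *Mapk14* (44.2 ± 4.76 against 42.6 ± 4.40) overlapped between Hypo_F/F and Norm_F/F. Within sets *Mapk12* was 31.2 to 32.4 in Hypo_F/F against 29.3 to 29.5 in Norm_F/F in the first and 30.0 to 30.4 against 33.7 to 35.9 in the second, in opposite directions. The kainate receptor subunits and *Neto1* summed to 0.409 to 0.872 FPKM per library over the 24 libraries. The receptor subunits with which Neto2 associates in neurons were thus low in these 24 libraries, and other partners were not looked at.

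On HFrD, the members lay mostly outside the range of the hypoxic libraries. All HFrD libraries are of the first set, and of the hypoxic libraries only Hypo_F/F c360 and c361 share it. Diet, hypoxia and set are thus largely mixed here, and the hypoxic values chose the members. *Slc25a30* measured 13.1, 7.31, 8.87 and 2.94 FPKM in HFrD_F/F (c292, c294, c301 and c310) and 17.8, 6.99, 9.52 and 10.5 in HFrD_ChMKO (c291, c293, c299 and c309). *Sbk2* measured 24.02, 23.9, 26.4 and 28.2 in HFrD_F/F and 21.9, 22.8, 40.3 and 37.5 in HFrD_ChMKO. *Neto2* measured 4.73, 6.09, 5.94 and 5.23 in HFrD_F/F and 5.55, 3.99, 8.17 and 6.03 in HFrD_ChMKO. These ranges lay above the hypoxic ones for *Neto2* and, apart from library c310 for *Slc25a30* and library c291 for *Sbk2*, for these genes as well. *Dusp26* measured 7.72, 8.27, 9.03 and 7.30 in HFrD_F/F and 7.78, 7.17, 8.57 and 5.74 in HFrD_ChMKO, all below every hypoxic value. How many of all genes part HFrD from hypoxic libraries was not counted, so these ranges are only a description.

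The diet comparison shares its Norm libraries with the hypoxia comparison, so it too is a description. HFrD minus Norm in F/F was -0.44 (SE 0.508) for *Slc25a30*, -0.40 (SE 0.150) for *Sbk2*, 0.33 (SE 0.358) for *Neto2* and 0.04 (SE 0.246) for *Dusp26* on the log2 scale. Only *Sbk2* did not overlap, in a comparison where 16.2% of all genes did not. The choice of Norm library set turned the sign of 3 of the 4. Against the 2 first-set Norm libraries, which share the set of the HFrD libraries, the differences were -1.13 for *Slc25a30*, -0.25 for *Sbk2*, -0.39 for *Neto2* and 0.46 for *Dusp26*. Against the 2 second-set Norm libraries they were 0.24, -0.55, 1.05 and -0.38. Within the first set the 4 HFrD_F/F and 2 Norm_F/F libraries did not overlap for any member, as was the case for 30.0% of all genes (67.6% against the second-set Norm libraries). In ChMKO, HFrD minus Norm was 0.27 (SE 0.228), -0.54 (SE 0.232), 0.83 (SE 0.240) and -0.41 (SE 0.207) in the same order, all with overlap, in a comparison that runs between the sets and in which 57.2% of all genes did not overlap. Of the relatives, *Ucp3* was 135 ± 16.5 FPKM in HFrD_F/F against 79.8 ± 13.4 in Norm_F/F, and *Dusp29*, a phosphatase of muscle, was 14.03 ± 4.53 against 27.3 ± 6.39 (SD, n = 4), both without overlap, also against the first-set Norm libraries alone.

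Between ChMKO and F/F the libraries overlapped for all 4 members in all 3 states, with some ChMKO values outside the F/F range, such as *Sbk2* at 40.3 and 37.5 FPKM on HFrD. ChMKO minus F/F in Norm was -0.21 (SE 0.407) for *Slc25a30*, 0.33 (SE 0.203) for *Sbk2*, -0.44 (SE 0.402) for *Neto2* and 0.32 (SE 0.306) for *Dusp26*, and in Hypo 0.05 (SE 0.195), -0.05 (SE 0.281), -0.30 (SE 0.245) and 0.34 (SE 0.273), all with overlap. With limma-voom the *Neto2* value in Hypo was -0.80. Groups that do not overlap were seen for 4.96% of genes in Norm and 2.03% in Hypo. Among second-set libraries alone the differences were 0.48, 0.18, 0.28 and -0.11 in Norm and 0.24, 0.00, 0.05 and 0.07 in Hypo, again with overlap. On HFrD, where all 8 libraries are of 1 set and none was used to choose the members, limma called no member, and 0 of 4 had an unadjusted p under 0.05, in a fit that called 0.0190% of genes and gave 774 of 10515 such an unadjusted p. The log2 differences were 0.50 for *Slc25a30* (95% interval -0.33 to 1.33, adjusted p = 0.848), 0.20 for *Sbk2* (-0.22 to 0.62, adjusted p = 0.9005), 0.07 for *Neto2* (-0.29 to 0.42, adjusted p = 0.966) and -0.14 for *Dusp26* (-0.37 to 0.10, adjusted p = 0.857). Whether the hypoxia differences themselves differ between genotypes was not tested, because they are the values that chose the members.

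Across the 6 groups, ordered by mean, *Dusp26* ran from Hypo_ChMKO and Hypo_F/F through Norm_ChMKO and Norm_F/F to HFrD_F/F and HFrD_ChMKO, and *Sbk2* ran from the Norm groups through the HFrD groups to the Hypo groups. The only neighbors in order whose means lay further apart than the larger SD were the step between Hypo_F/F and Norm_ChMKO for *Dusp26*, that between HFrD_F/F and Hypo_ChMKO for *Slc25a30* and *Sbk2*, and that between Norm_ChMKO and Hypo_F/F for *Neto2*. In each case this is the border between the hypoxic groups and the rest, which restates the choice of the members and is no result.

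SOL was compared with GC of chow-fed mice that carry the same numbers in the labels, in libraries that did not choose the members. The 3 genes that were lower in hypoxic GC were also lower in SOL, in both genotypes and for every mouse number. *Dusp26* was lower in SOL of F/F mice and was not called in ChMKO. The test called 50.4% of all genes in F/F and 57.9% in ChMKO, so a call is common here, and more genes were higher (5013 and 5359) than lower (1660 and 2216) in SOL, with a median log2 difference of 0.18 and 0.15 over all genes. Scaling by median ratios, which takes such a shift out, kept every call of a member. Markers of other cells differed as well: all 4 endothelial and all 5 red blood cell genes tested, and 4 of 5 smooth muscle genes in F/F and 5 of 5 in ChMKO, were higher in SOL. Endothelial sums were 95.6 to 153 FPKM in SOL against 29.4 to 65.4 in GC of F/F mice, and red blood cell sums 165 to 354 against 61.9 to 123. Sums of cardiac genes were 39.1 to 55.6 against 2.70 to 4.31 in F/F and 35.3 to 60.8 against 2.18 to 3.61 in ChMKO. In F/F and ChMKO, list medians were 1.39 and 0.67 for adipocyte and 0.09 and 0.61 for Schwann cell genes. They were 0.11 and -0.17 for fibroblast and 0.10 and -0.23 for macrophage and leukocyte genes. Slow fiber sums were 6270 to 10200 in SOL against 3.73 to 153 in GC over both genotypes. Fast fiber sums were 16100 to 19400 in SOL against 33700 to 50900 in GC, with 4 of 6 genes lower in each genotype and list medians of -0.85 in F/F and -0.95 in ChMKO. Their part in the members' differences was not tested.

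**Figure D2:**
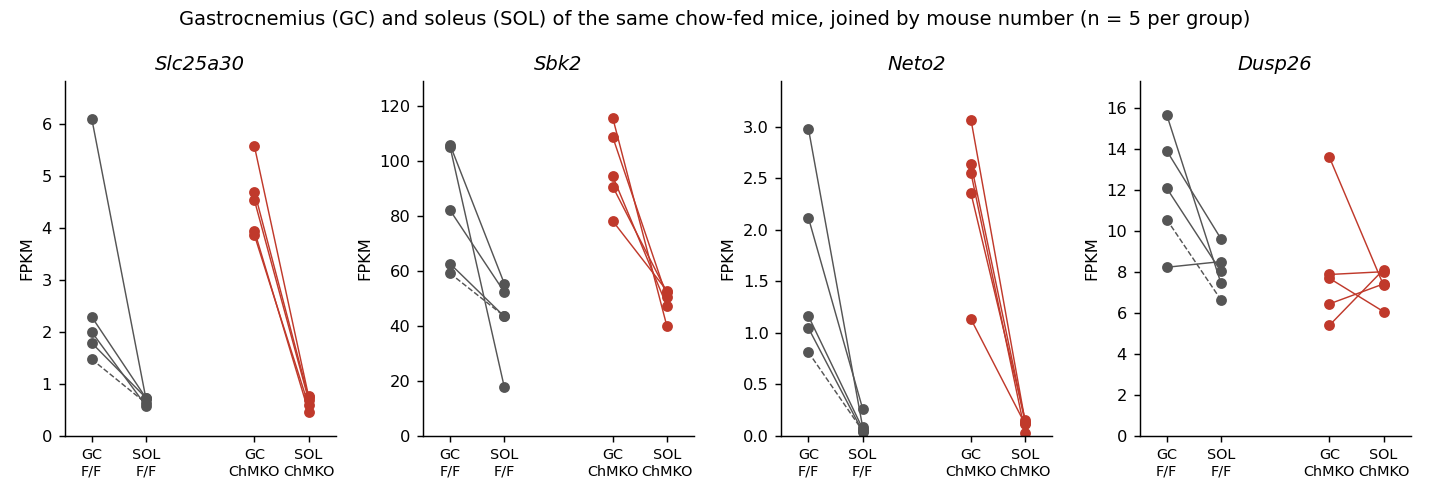
FPKM (vertical axis) of the 4 genes in GC and SOL of chow-fed F/F (grey) and ChMKO (red) mice, with lines joining the muscles of a mouse number (n = 5 per group, dashed for F/F mouse 69, whose soleus title and description give different numbers). All 10 lines go down from GC to SOL for *Slc25a30*, *Sbk2* and *Neto2*, and those of *Dusp26* cross.

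*Slc25a30* measured 2.29, 1.79, 1.47, 2.00 and 6.10 FPKM in GC of F/F mice 57, 58, 69, 70 and 71 and 0.58 to 0.73 in their SOL. In ChMKO it measured 5.58, 3.95, 4.70, 4.54 and 3.86 in GC of mice 59, 60, 61, 72 and 74 and 0.46 to 0.76 in SOL. The muscles did not overlap in either genotype, and the log2 difference was -1.04 (SE 0.236, limma adjusted p = 0.00377) in F/F and -1.74 (SE 0.0915, adjusted p = 4.92e-08) in ChMKO, lower in 5 of 5 mice in each. The SOL values lay below the pseudocount of 1, which narrows these differences. Mean FPKM was 0.67 in SOL against 2.73 in GC in F/F and 0.65 against 4.53 in ChMKO.

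*Neto2* was near the floor in SOL. It measured 2.11, 1.05, 0.81, 1.16 and 2.98 FPKM in GC of the F/F mice and 0.26, 0.04, 0.05, 0.07 and 0.09 in their SOL, and 2.55, 2.64, 3.07, 2.35 and 1.13 in GC of the ChMKO mice and 0.03 to 0.15 in their SOL. The log2 difference was -1.19 in F/F and -1.56 in ChMKO, which the pseudocount of 1 holds down at such levels. *Neto2* passed the filter on low values through GC alone, where it is high, so its test in the filtered fit is not given. In the fit without the filter, over all genes, the limma adjusted p was 0.00165 in F/F (SE 0.199) and 2.83e-05 in ChMKO (SE 0.153).

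*Sbk2* stayed abundant in SOL at lower level. It measured 106, 62.5, 59.01, 81.9 and 105 FPKM in GC and 55.3, 43.4, 43.4, 52.2 and 17.7 in SOL of the F/F mice, where mouse 71 had a high GC and the lowest SOL value. In ChMKO it measured 116, 94.3, 90.6, 109 and 78.1 in GC and 39.8, 47.2, 52.2, 50.4 and 52.7 in SOL. The muscles did not overlap, with log2 differences of -1.004 (SE 0.291, limma adjusted p = 0.0142) and -0.99 (SE 0.110, adjusted p = 1.66e-05).

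*Dusp26* measured 8.23, 15.7, 10.6, 12.1 and 13.9 FPKM in GC and 8.51, 7.45, 6.64, 8.04 and 9.63 in SOL of the F/F mice, lower in 4 of 5, with a log2 difference of -0.51 (SE 0.153, limma adjusted p = 0.0161). In ChMKO it measured 6.44, 5.39, 7.88, 13.6 and 7.70 in GC and 7.42, 8.12, 8.02, 7.36 and 6.07 in SOL, with a log2 difference of -0.08 (95% interval -0.48 to 0.32, adjusted p = 0.732). The muscle by genotype interaction, which tests the difference between these, was 0.43 for *Dusp26* (SE 0.252, adjusted p = 0.892). It was 0.02 for *Sbk2* (SE 0.331), also not called. *Neto2* entered this fit through GC alone as well, so its interaction is not given.

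The relatives differed between muscles in both directions. *Sbk3* went the other way from *Sbk2*, at 7.85 ± 2.84 FPKM in SOL against 0.29 ± 0.22 in GC of F/F mice and 9.09 ± 1.49 against 0.35 ± 0.25 in ChMKO (SD, n = 5), without overlap. It passed the filter through SOL alone, so its test is not given. *Sbk1* was 8.10 ± 1.31 against 5.72 ± 0.55 in F/F (adjusted p = 0.00820). Of 6 carriers tested, 3 were higher in SOL in each genotype (*Ucp2*, *Slc25a10*, *Slc25a11*) and the other 3 were not called in F/F, while *Ucp3* and *Slc25a27* were lower in ChMKO. *Ucp3* had log2 differences of -1.08 in F/F (adjusted p = 0.0766) and -1.63 in ChMKO (adjusted p = 0.000385). Of the atypical phosphatases other than *Dusp26*, 1 of 13 was higher and 6 lower in F/F, and 4 of 12 were higher and 7 lower in ChMKO, beside 50.4% and 57.9% called over all genes. *Dusp29* (-0.97 and -1.37), *Dusp23* (-1.08 and -0.99) and *Styx* (-1.12 and -0.80) were among those lower in both, and *Dusp18* stood 2.53 and 2.56 higher. *Mapk14*, a p38 kinase, was lower in SOL (-1.003 in F/F and -1.22 in ChMKO, adjusted p = 0.00720 and 2.47e-07). *Grik5* was the 1 kainate receptor subunit that passed the filter on low values, at 1.57 ± 0.17 FPKM in SOL and 1.32 ± 0.11 in GC of F/F mice (SD, n = 5, adjusted p = 0.116).

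Between genotypes on chow, limma called no member. The fits called 0.0236% of genes in GC and 0.0225% in SOL. In GC, *Slc25a30* was 4.53 ± 0.69 FPKM in ChMKO against 2.73 ± 1.91 in F/F (SD, n = 5), a log2 difference of 0.68 (95% interval 0.14 to 1.21, unadjusted p = 0.0176, adjusted p = 0.9996). F/F mouse 71, at 6.10 FPKM, was above all ChMKO mice, and the other 4 F/F mice were below all of them. Without mouse 71 the difference was 0.94 (SE 0.113) with an adjusted p of 0.0183. *Dusp26* was 8.21 ± 3.19 against 12.1 ± 2.90, with a log2 difference of -0.54 (95% interval -1.01 to -0.07, limma unadjusted p = 0.0291, adjusted p = 0.9996). Over all genes, 589 of 12724 had an unadjusted p under 0.05 in the GC fit. *Sbk2* (0.26) and *Neto2* (0.38) had intervals that included 0. In SOL the differences were -0.02 for *Slc25a30* (95% interval -0.18 to 0.13), 0.28 for *Sbk2* (-0.28 to 0.84) and -0.11 for *Dusp26* (-0.33 to 0.12), and *Neto2* fell below the filter. The interaction for *Slc25a30* was -0.70 (SE 0.267, adjusted p = 0.892), and without GC of F/F mouse 71 it was -0.96 with an adjusted p of 0.00764. The interaction fit called 0.00759% of genes.

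ChREBP overexpression was measured in muscle and in cultured cells. In AAV-injected GC no member was called, by a fit that called 0.00904% of genes. *Sbk2* was lower in AAV-MLXIPL than in the AAV-CON library of the same number in 5 of 5 pairs. It measured 42.7, 42.4, 40.1, 19.7 and 14.1 FPKM in AAV-CON libraries 1, 3, 4, 7 and 8 and 28.6, 24.6, 20.1, 13.4 and 10.8 in the AAV-MLXIPL libraries of these numbers. The groups overlapped because libraries 7 and 8 of both groups were low, and these 4 libraries also lay apart from the other 6 on the first principal component of this table (35.4% of the variance). The log2 difference was -0.63 (SE 0.334, 95% interval -1.36 to 0.09, limma adjusted p = 1). With the number as a block the SE was 0.0782 and the adjusted p 0.0687, which does not pass the threshold. *Neto2* was lower in 5 of 5 pairs by a mean of 0.22 on the log2 scale, from 2.23 ± 0.88 FPKM in AAV-CON to 1.79 ± 0.79 (SD, n = 5, limma adjusted p = 0.847 with the block). Pair 7 was close to a tie, at 1.171 FPKM in AAV-CON and 1.166 in AAV-MLXIPL. How many of all genes were lower in every pair was not counted. *Slc25a30* (0.05, 95% interval -0.28 to 0.38) was lower in 2 of 5 pairs and *Dusp26* (-0.11, 95% interval -0.63 to 0.41) in 2 of 5.

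**Figure D3:**
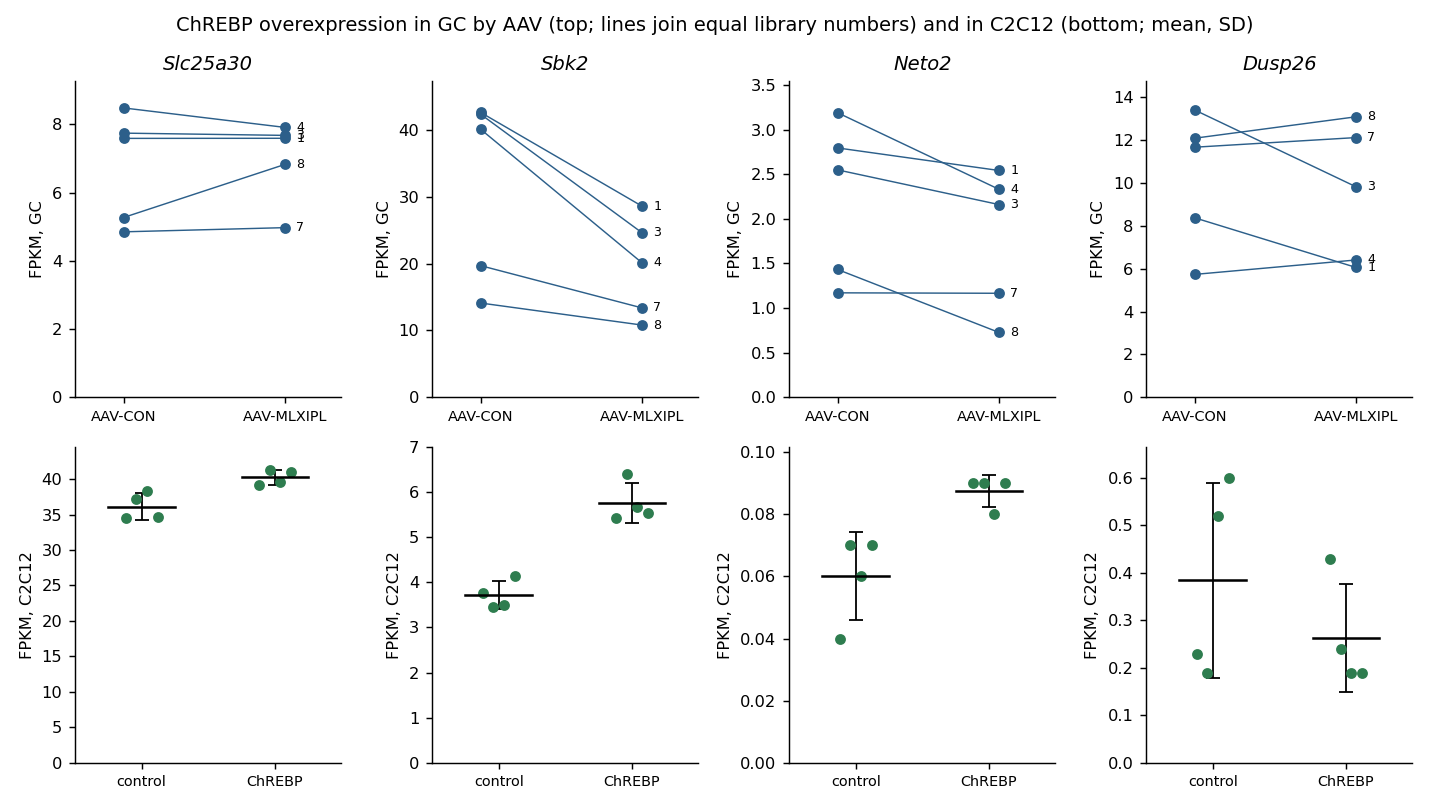
FPKM (vertical axes) of the 4 genes in AAV-injected GC (top, lines joining libraries of the same number, n = 5) and in C2C12 (bottom, each library with the mean and SD, n = 4). All 5 lines of *Sbk2* and *Neto2* go down with AAV-MLXIPL, and *Slc25a30* and *Sbk2* of the ChREBP line lie above the control line in C2C12.

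In C2C12 myotubes *Sbk2* and, by a small step, *Slc25a30* were higher in the ChREBP line. *Sbk2* measured 3.77, 3.46, 3.49 and 4.13 FPKM in the control line and 5.43, 6.40, 5.68 and 5.53 in the ChREBP line, a log2 difference of 0.52 (SE 0.0630, limma adjusted p = 0.000107). *Slc25a30* measured 34.5, 37.1, 38.3 and 34.6 in the control line and 39.1, 41.3, 39.6 and 41.0 in the ChREBP line, a difference of 0.15 (SE 0.0385, adjusted p = 0.0118). Neither gene overlapped between lines, in a comparison that called 30.5% of all genes. *Neto2* (0.04 to 0.07 and 0.08 to 0.09 FPKM) and *Dusp26* (0.19 to 0.60 and 0.19 to 0.43) fell below the filter. With 1 line per arm, line and ChREBP cannot be told apart. Differentiation markers moved with the arm as well: the summed fiber genes were 893 to 940 FPKM in the control line and 1020 to 1060 in the ChREBP line, the slow fiber genes 393 to 430 against 547 to 585, and the smooth muscle genes 433 to 456 against 769 to 797. Their part in the 2 members' rise was not tested. The *Sbk2* difference was positive in C2C12 and negative in AAV-injected GC, and the difference between these was not tested. Of the relatives, *Sbk3* was 0.70 ± 0.05 FPKM in the ChREBP line against 0.31 ± 0.05 in the control line (SD, n = 4). It reached the filter only through the ChREBP line, so its test is not given. Further, 5 of 11 atypical phosphatases rose (*Dusp3*, *Dusp13*, *Dusp14*, *Dusp18*, *Dusp27*) and 0 fell.

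**Figure D4:**
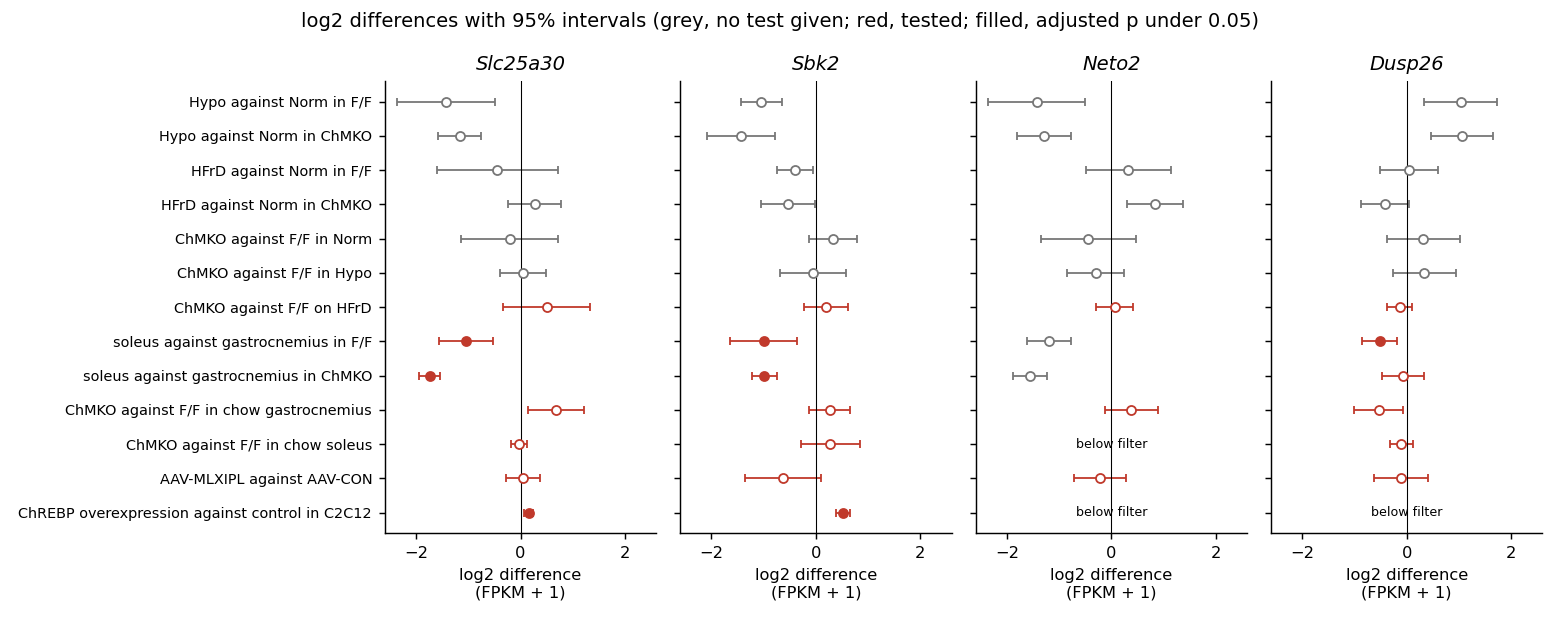
log2 differences of FPKM + 1 (horizontal axes) with 95% intervals for the 4 genes in 13 comparisons. Grey marks comparisons whose libraries chose the members or are shared with that choice. It also marks *Neto2* in SOL against GC, which reached the filter through 1 group alone. No test of the fits in grey is given, and for *Neto2* the text gives that of the unfiltered fit. Red marks differences that limma tested, filled where the adjusted p is below 0.05. The points filled for *Slc25a30* and *Sbk2* are SOL against GC in both genotypes, for *Dusp26* SOL against GC in F/F, and for *Slc25a30* and *Sbk2* also C2C12.

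The rank of 3 members among the genes detected was lower in cultured cells than in any muscle group. Tables were normalized separately, so ranks within each table are given in place of levels. Ranks are not strictly comparable between tables either, since the number of detected genes differs. It was 24592 to 25791 in the chow groups, 15852 to 16416 in the other muscle groups and 16101 in C2C12 controls. Over the 12 muscle groups *Sbk2* lay above 88.2% to 98.0% of detected genes, and above 39.9% in C2C12 controls. *Dusp26* lay above 78.6% to 91.3% and 24.4%, and *Neto2* above 32.5% to 75.9% and 14.2%. *Slc25a30*, at 84.0% in C2C12 controls, was within its range over muscle of 50.4% to 85.4%, and at 85.7% in the ChREBP line it was just above that range. The defining muscle genes were present in C2C12 (summed fiber genes at least 893 FPKM), as were fibroblast markers.

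Likeness between members was measured from library to library. Over the 24 libraries of the Norm, Hypo and HFrD groups, which share 1 table and the split into sets, Pearson's r of log2(FPKM + 1) between *Neto2* and *Dusp26* was -0.923, the most negative of the 9314 genes compared with *Dusp26*. It was -0.751 after group means were removed and -0.599 after set means were removed too. *Slc25a30* and *Neto2* had an r of 0.765 that came to 0.484 and then 0.083. *Slc25a30* and *Sbk2* had an r of 0.610 that came to 0.068 and then 0.197, *Sbk2* and *Neto2* 0.586, 0.185 and 0.460, *Sbk2* and *Dusp26* -0.570, -0.009 and -0.093, and *Slc25a30* and *Dusp26* -0.699, -0.242 and 0.115. The values as measured span the Hypo and Norm libraries that chose the members, so likeness among them is built in. Removing group means brought all 6 pairs of members closer to 0, and *Neto2* with *Dusp26* stayed furthest from it.

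The genes whose pattern was most like each member, by the same r over 24 libraries, were *Wnk1* (0.937), *Vldlr* (0.909) and *Clcn4* (0.909) for *Neto2*, *Rps13* (0.912), *Mcu* (0.899) and *Rps2* (0.894) for *Dusp26*, *Fam120b* (0.861), *Kif3c* (0.845) and *Anxa7* (0.843) for *Sbk2*, and *Zfp661* (0.822), *Mylk4* (0.801) and *Maco1* (0.791) for *Slc25a30*. With group and set means removed these values were lower, at 0.316, 0.398 and 0.442 for the genes of *Neto2*, 0.706, 0.556 and 0.811 for those of *Dusp26*, 0.704, 0.713 and 0.532 for those of *Sbk2* and 0.545, 0.598 and 0.640 for those of *Slc25a30*. *Wnk1* encodes a kinase that controls ion cotransport and *Mcu* the pore of the mitochondrial calcium uniporter. With group means removed, *Neto2* was most like *Trim24* (0.833), *Mstn* (0.828), which encodes the muscle growth inhibitor myostatin, and *Nr1d2* (0.828), which encodes a nuclear receptor. *Dusp26* was then most like *Kxd1* (0.874) and *Eif2d* (0.869), *Sbk2* like *Prdx1* (0.781) and *Lama5* (0.776), and *Slc25a30* like *Cdc14a* (0.792) and *Tbk1* (0.752). With set means removed too, these values came to 0.704, 0.611 and 0.476 for the genes of *Neto2*, 0.861 and 0.824 for those of *Dusp26*, 0.870 and 0.784 for those of *Sbk2* and 0.680 and 0.631 for those of *Slc25a30*. In the 20 chow libraries with group means removed, the r of these genes with their member ranged widely, for example 0.830 for *Osbpl2* and -0.574 for *Lama5* with *Sbk2*, and 0.581 for *Trim24* with *Neto2*. These are the highest of 9314 correlations and carry no test.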

How the data were processed

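Gene expression was measured by RNA-seq in 62 libraries. FPKM values in all 4 tables were made by the authors, who per the study's methods and processing notes trimmed reads with fastp 0.18.0, aligned them with HISAT2 2.1.0 and name StringTie 1.3.1, RSEM, Bowtie2 2.2.8 and GRCm39, without saying which step made which table. Positions in the chow table are those of GRCm38. For AAV and C2C12 no unit is named, and FPKM was inferred from the values. The fold changes and p-values deposited by the authors in the AAV table were not used. Of entries sharing a symbol, that of highest mean was used.

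Each pair of groups was fitted by itself with limma 3.58.1 (trend) in R 4.3.3 on log2(FPKM + 1), keeping genes whose mean over the compared libraries reached 0.5 FPKM, without covariates, and the interaction over the 4 chow groups. Tests were two-sided, with Benjamini-Hochberg adjustment over all genes tested and a call at an adjusted p below 0.05. The study tested counts, and only FPKM were used here. Scripts were tested on simulated data. Reads of the Norm, Hypo and HFrD libraries were recovered as whole numbers from low values and gene lengths (99.79% to 99.89% of values whole within 0.01 reads), for limma-voom as an alternative. Depth sets the counting error of low genes, and the spread between libraries set every error given. Replicates are biological per the methods, and the C2C12 libraries share 1 line per arm, so their spread is that within a line.

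GC and SOL libraries share mouse numbers in the labels and were taken as muscles of 1 mouse, which no source states outright. Their deviations from group means correlated at -0.017 to 0.322 in F/F and 0.021 to 0.049 in ChMKO. Deviations of AAV libraries of equal number correlated at 0.211 to 0.490 over the 5 pairs, and for number 3 the best match was another number. What these numbers stand for is not given in the sources used here, so this pairing is an assumption. The members and the lists of relatives and markers were chosen with earlier results of these data known. Named relatives averaged 1 FPKM or more in GC of the Norm, Hypo and HFrD table or passed a test, and genes of like pattern were the 5 highest per member, of which 2 or 3 are named. Alternatives were a pseudocount of 0.1, no filter, median-ratio scaling, limma-voom, each library left out, the replicate block and, added after seeing the data, the sets of libraries and the block without mouse 69.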

Additional observations from a re-analysis of the deposited data

Results flagged for a closer look

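Of 56 checks of a member within a group of libraries, 3 had 1 library whose gap to the nearest other, relative to the range of the group, passed Dixon's 95% value. Chance gives about 1 in 20. In chow-fed F/F mice, *Slc25a30* in GC of mouse 71 was 6.10 FPKM, with the next highest at 2.29. Between genotypes in chow GC, *Slc25a30* was not called with this mouse and passed the threshold without it. In SOL of F/F mouse 57, *Neto2* was 0.263 FPKM, with the next highest at 0.0855. In C2C12 with ChREBP overexpression, *Neto2* in library 3 was 0.08 FPKM against 0.09 in each of the others, a gap of 1 step of a table rounded to 2 decimals.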

How the results depend on the processing

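Of the members' 747 alternative values, 736 stayed on their side of the threshold or, with no test, within 1 SD, 9 moved by more than 1 SD and 2 passed a threshold that had been missed (*Slc25a30* without F/F mouse 71). No call was lost. The sign turned in 34 values, all of differences that had not been called or whose groups overlapped, among them *Slc25a30* (0.24 for HFrD in F/F against second-set Norm, 0.48 for ChMKO against F/F in Norm within the second set). The block or pairing by replicate number changed no member's call: *Sbk2* in AAV-injected GC came to an adjusted p of 0.0687 and *Dusp26* in SOL against GC of F/F mice to 0.0169. C2C12 numbers did not pair the libraries (correlations -0.094 to 0.176), and there the block gave 3357 called genes against 3647. Depth limits *Neto2* most. The causes of the shifts below were not tested.

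Limma-voom gave *Neto2* differences of -2.21 (hypoxia, F/F), -2.48 (hypoxia, ChMKO) and -0.80 (ChMKO against F/F in Hypo), and the pseudocount of 0.1 gave -2.20 for hypoxia in ChMKO. By set of Norm_F/F libraries, HFrD against Norm was -0.39 and 1.05 for *Neto2* and 0.46 and -0.38 for *Dusp26*, and ChMKO against F/F in Norm within the second set was 0.28 for *Neto2*. Leaving out each library gave *Slc25a30* differences of 0.56 to 0.94 between genotypes in chow GC and -0.96 to -0.58 for the interaction, with limma adjusted p from 0.0183 to 1 and from 0.00764 to 0.998. The values 0.94 and -0.96 and the lowest p are those without F/F mouse 71.

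Counts of genes that do not overlap were 501 without the filter for hypoxia in F/F and 358 for ChMKO against F/F in Hypo. By set they were 5415 and 4442 for hypoxia in F/F, 3176 and 7241 for HFrD in F/F, and in the second set 1160 and 485 for ChMKO against F/F in Norm and Hypo. With 1 library left out at a time they were 465 to 691 and 1284 to 1752 for hypoxia in F/F and ChMKO, 1899 to 2882 for HFrD in F/F, and 594 to 2795 and 252 to 1458 for ChMKO against F/F in Norm and Hypo, where fewer libraries by construction overlap less. The highest of these came, in order, without Hypo_F/F c341, Hypo_ChMKO c345, Norm_F/F c397, Norm_F/F c369 and Hypo_F/F c341. Called genes were then 1 to 1 on HFrD, 3 to 5 in chow GC, 3 to 6 in chow SOL and 1 to 2 for the interaction. The pseudocount of 0.1 or no filter gave 5 in chow GC, and no filter 2 for the interaction.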
